A study of Bos taurus with 12 samples.

Results

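Of the 38030 bovine transcripts quantified in every library, the 178 whose annotated length was at least 12000 nt are described here, chosen by length alone. They made up 0.468% of the transcripts and 2.78% of the summed transcript length, and their lengths ran from 12027 to 24420 nt with a median of 14159.5 nt, against 2013 nt for all transcripts. Only 6 members reached 20000 nt. RNA had been sequenced from single MII oocytes, collected from the preovulatory follicle by ovum pickup, and from the cumulus cells that surrounded such oocytes. The donors, multiparous lactating dairy cows, were grouped by the change in their body condition score between calving and 27 to 33 days in milk, as animals with a loss (the L group) or with none or a gain (M/G). Each group and cell type had 3 libraries, which made 12 libraries from 9 cows, since 3 cows contributed to both cell types. All donors had been synchronized for ovulation, so no group was free of hormone treatment, and each oocyte library rested on 1 cell. Group membership followed the sample titles. The condition field of the sample records names the opposite group for all 12 libraries, so every L against M/G direction below depends on the titles. The cow numbers attached to the libraries fall in the titles' groups in the study's own listing of donors.

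Messenger RNAs of this length usually encode giant proteins, such as cytoskeletal linkers, motor proteins, large cell surface receptors and very large enzymes. A long mRNA yields more sequenced fragments per molecule than a short one, so its share of the counts exceeds its share of the molecules, and TPM, a unit of abundance scaled to a fixed total per library, divides each count by the effective length of the transcript to correct for this. A full-grown oocyte is transcriptionally quiet and lives on stored maternal mRNA, while cumulus cells are transcriptionally active somatic cells that feed and signal to it. The tables gave transcript identifiers without gene symbols, and a lookup of all 38030 in a RefSeq gene table matched 0. Members are therefore named by identifier, with no statement of what their proteins do, and the cell types could not be checked against marker genes.

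The libraries held from 6397423 to 31810285 estimated counts. The oocyte and cumulus libraries were made with different kits, so cell type and kit cannot be told apart in any comparison between them. Effective lengths also differed in kind. In all 6 oocyte tables they equalled the length minus 199 nt (tolerance 0.01 nt) for each of the 30601 transcripts over 1000 nt, whereas in the cumulus tables they did so for 17.8 to 41.7% of these transcripts. In the cumulus tables the ratio of effective to annotated length of the members ran from 0.825 to 1.28. A pair of libraries stood apart. In M/G oocyte replicate 1, transcripts under 500 nt took 63.8% of the TPM, against 27.7 to 34.5% in the other oocytes, and the 10 highest transcripts held 29.1% of the counts, against 2.63 to 2.91%. In L cumulus replicate 3, the 10 highest transcripts held 54.3% of the counts, against 10.1 to 20.8% in the other cumulus libraries. Their part in the results was not tested beyond the values given without them.

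Transcripts just inside and just outside the length threshold were compared first. A transcript was counted as detected in a library when its estimated count was over 3. The shortest member, ENSBTAT00000081003.1 (12027 nt), was detected in 1 of 12 libraries, and the longest transcript outside, ENSBTAT00000081543.1 (11991 nt), also in 1. Of the 10 shortest members a mean of 5.17 were detected per oocyte library and 4 per cumulus library, and of the 10 longest transcripts outside 4.5 and 5.

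Detection was lowest for short transcripts, highest in the class of 10000 to 11999 nt and lower again for the members. In oocytes 28.2% ± 5.42 (SD, n = 6) of transcripts under 500 nt were detected, 53.3% ± 6.99 of those of 2000 to 3999 nt, 57.7% ± 6.28 of the 135 transcripts of 10000 to 11999 nt, and 50.7% ± 4.76 of the members. In cumulus cells the same classes had 22.5% ± 4.64, 47.1% ± 10.6, 52.0% ± 10.7 and 42.3% ± 7.41. Within each of the 12 libraries the share of members detected was below that of the class of 10000 to 11999 nt. The share with a TPM over 1 was likewise below that class in 12 of 12 libraries, at 31.5% ± 4.14 against 43.0% ± 4.27 in oocytes and 26.2% ± 6.17 against 35.2% ± 7.46 in cumulus cells. Among the members themselves, 51.2% of those of 12000 to 13999 nt, 45.4% of those of 14000 to 15999 nt and 58.8% of those of 16000 nt or more were detected per oocyte library on average. In cumulus cells the same classes had 37.0%, 46.3% and 49.0%. Of the 34 members of 16000 nt or more, a mean of 20 ± 2.28 were detected per oocyte library and 16.7 ± 3.01 per cumulus library, and 1 was detected in no library, compared with 17 of the 86 members of 12000 to 13999 nt and 6 of the 58 in between.

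**Figure D1:**
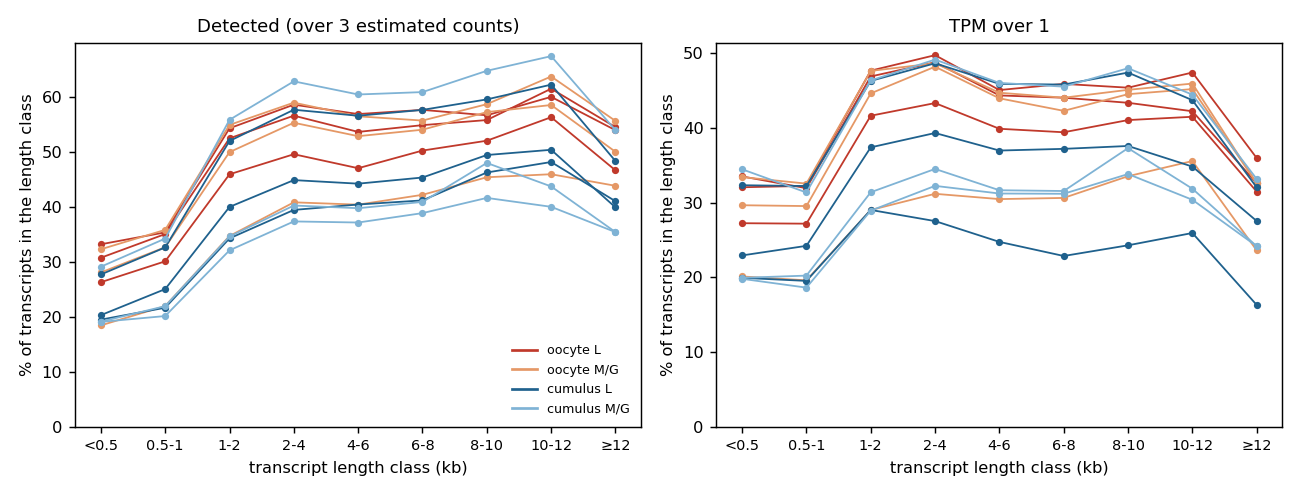
Percentage of transcripts in each length class (kb, x axis) that had over 3 estimated counts (left) or a TPM over 1 (right) in each library, 1 line per library, coloured by group. In all 12 lines the last point, the 178 members, lies below the class of 10 to 12 kb.

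In oocytes the number of members detected was 96, 97 and 83 in L replicates 1 to 3 and 78, 89 and 99 in M/G replicates 1 to 3. In cumulus cells it was 71, 86 and 73 in the L group and 63, 63 and 96 in the M/G group. The mean was 90.3 ± 8.48 in oocytes and 75.3 ± 13.2 in cumulus cells (SD, n = 6 each), a difference of 15 members. The cell types overlapped, since L cumulus replicate 2 and M/G cumulus replicate 3 lay above the lowest oocytes. As a share, 50.7% of the members were detected in oocytes and 42.3% in cumulus cells. Over all transcripts the share was also higher in oocytes, at 47.3% ± 6.69 against 41.0% ± 9.31. The cumulus libraries were also the shallower ones on average, with a mean of 9.33e+06 estimated counts against 2.31e+07, and at one common limit of 0.469 CPM (counts scaled to a fixed library total) in all libraries the difference was 11 members (85.5 against 74.5). Within oocytes, 92 ± 7.81 members were detected in the L group and 88.7 ± 10.5 in the M/G group, and within cumulus cells 76.7 ± 8.14 and 74 ± 19.1 (SD, n = 3 each). Both differences were smaller than the spread within either group. Over all transcripts the shares detected were 49.1% (L) and 45.5% (M/G) in oocytes, and 41.5% and 40.6% in cumulus cells.

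Members were detected in changing subsets. A total of 154 members were detected in at least 1 library, and 24 (13.5%) in none, against 19.2% of all transcripts. Another 24 (13.5%) were detected in all 12 libraries, against 12.5% of all transcripts. Of the 178, 43 (24.2%) were detected in all 6 oocyte libraries, against 22.4% of all transcripts, and 32 (17.98%) in all 6 cumulus libraries, against 17.7%. Between cell types, 30 members (16.9%) were detected in oocyte libraries only, against 11.9% of all transcripts, and 12 (6.74%) in cumulus libraries only, against 9.29%. Detection in all 6 oocyte libraries and in no cumulus library was seen for 5 members (2.81%), where the background over all transcripts was 0.642%. They were ENSBTAT00000072701.1, ENSBTAT00000061000.3, ENSBTAT00000008967.6, ENSBTAT00000005988.6 and ENSBTAT00000038995.5, the last 3 of which are named after their values were seen. The reverse pattern was seen for 0 members, where the background was 0.0999%. In neither cell type was a member detected in all 3 libraries of one body condition group and in none of the other, a pattern shown by 0.326% (L) and 0.216% (M/G) of all transcripts in oocytes and 0.147% and 0.176% in cumulus cells.

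**Figure D2:**
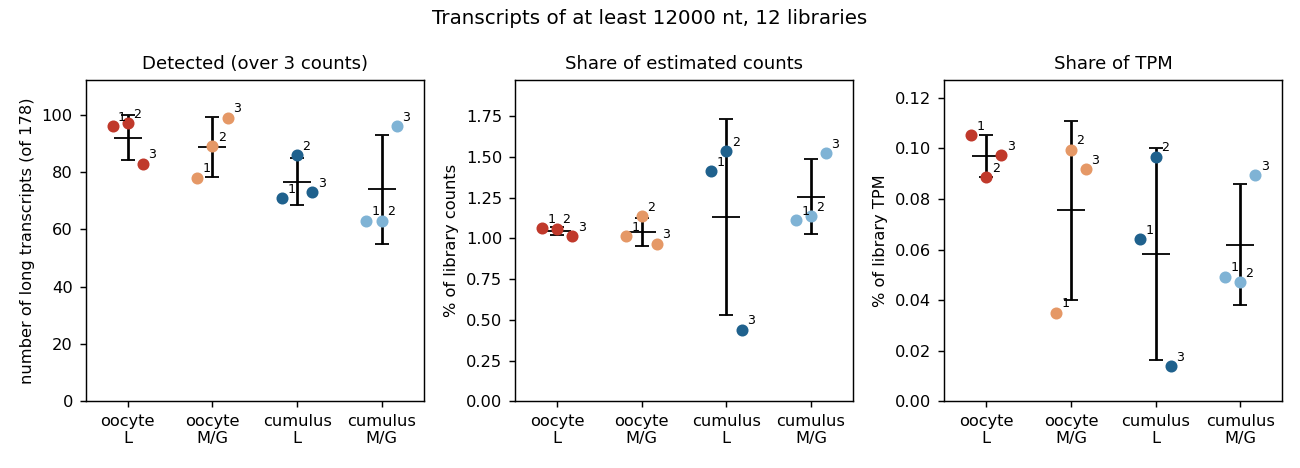
Members detected, their percentage of the estimated counts and their percentage of the TPM in each library (points, numbered by replicate), with the mean and SD of each group of 3 (black). M/G oocyte replicate 1 is the lowest oocyte in the right panel (0.0350%), and L cumulus replicate 3 is the lowest library in both share panels (0.439% and 0.0139%).

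The members' share of the estimated counts lay within a narrow band in oocytes and not in cumulus cells. It was 1.06%, 1.06% and 1.01% in L oocytes and 1.01%, 1.14% and 0.967% in M/G oocytes. The cumulus libraries gave 1.41%, 1.53% and 0.439% in the L group and 1.11%, 1.13% and 1.52% in the M/G group. Of the cumulus libraries, 5 lay within or above the oocyte range and L replicate 3 lay well below it. The means were 1.04% ± 0.0579 in oocytes and 1.19% ± 0.412 in cumulus cells (SD, n = 6 each). The members' share of the counts was thus below their 2.78% share of the summed length in all 12 libraries. By body condition the means in oocytes were 1.044% ± 0.0263 (L) and 1.038% ± 0.0875 (M/G), and in cumulus cells 1.13% ± 0.600 and 1.26% ± 0.230.

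On the TPM scale the share was smaller by an order of magnitude and ordered differently. It was 0.105%, 0.0886% and 0.0974% in L oocytes and 0.0350%, 0.0995% and 0.0919% in M/G oocytes. The cumulus values were 0.0641%, 0.0967% and 0.0139% in the L group and 0.0493%, 0.0471% and 0.0895% in the M/G group. The oocyte mean, 0.0863% ± 0.0258, exceeded the cumulus mean, 0.0601% ± 0.0305, by 1.44 times, and the groups overlapped. The count share had the opposite order, with oocyte minus cumulus differences of -0.301 to -0.0821 percentage points when 1 library was left out, but with a length limit of 10000 nt it too was higher in oocytes, by 0.369 percentage points. The libraries with a low TPM share were those in which transcripts under 500 nt held much of the TPM, between 53.4 and 63.8% in the 5 lowest. With TPM computed anew over transcripts of at least 500 nt the share was 0.132% ± 0.0191 in oocytes and 0.118% ± 0.0481 in cumulus cells. Between L and M/G the means were 0.0971% ± 0.00832 and 0.0755% ± 0.0353 in oocytes and 0.0582% ± 0.0417 and 0.0620% ± 0.0239 in cumulus cells, and both differences were smaller than the larger of the SDs. The difference in oocytes was 0.0216 percentage points, and 0.00139 without M/G replicate 1.

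A few members carried most of the signal. The 10 highest members of a library held 58.0% ± 2.65 of the members' counts in oocytes and 62.7% ± 3.13 in cumulus cells. Mean TPM was over 1 for 72 members in oocytes and 62 in cumulus cells, over 10 for 22 and 14, and over 50 for 2 and 2. Over 10 TPM stood 12.4% of the members and 26.2% of all transcripts in oocytes, and 7.87% and 14.6% in cumulus cells. Of the 20 highest members of each cell type 10 were shared.

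The highest member in oocytes was ENSBTAT00000028347.6 (14712 nt), with 140, 93.4 and 123 TPM in L oocytes and 13.0, 106 and 136 TPM in M/G oocytes. In cumulus cells it had 0.939, 23.4 and 0.000402 TPM in the L group and 0.00285, 0.00254 and 23.4 TPM in the M/G group. It was thus detected in 3 cumulus libraries, of which L replicate 1 lay far below the other 2, and the 3 libraries near 0 came from both body condition groups. The mean was 101.9 ± 47.0 TPM in oocytes and 7.97 TPM in cumulus cells. The groups did not overlap on the count scale, but with such spread the difference did not pass the test described below (log2 fold change 3.04, edgeR adjusted p = 0.202).

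ENSBTAT00000029285.6 (21570 nt) was among the 3 highest members in both cell types. It had 120, 98.5 and 100.4 TPM in L oocytes and 32.5, 108 and 95.6 TPM in M/G oocytes. Its cumulus levels were 52.5, 90.2 and 11.4 TPM in the L group and 21.3, 29.7 and 56.8 TPM in the M/G group. On the TPM scale the oocyte mean (92.4 ± 30.6) was above the cumulus mean (43.7 ± 28.8), while on the count scale, after TMM scaling, the difference was small (log2 fold change 0.32, edgeR adjusted p = 0.504). The third oocyte member, ENSBTAT00000009365.6 (12186 nt), had the same form, with 48.0 ± 24.4 TPM in oocytes and 16.4 ± 8.00 TPM in cumulus cells (log2 fold change 0.47 on the count scale, edgeR adjusted p = 0.466).

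**Figure D3:**
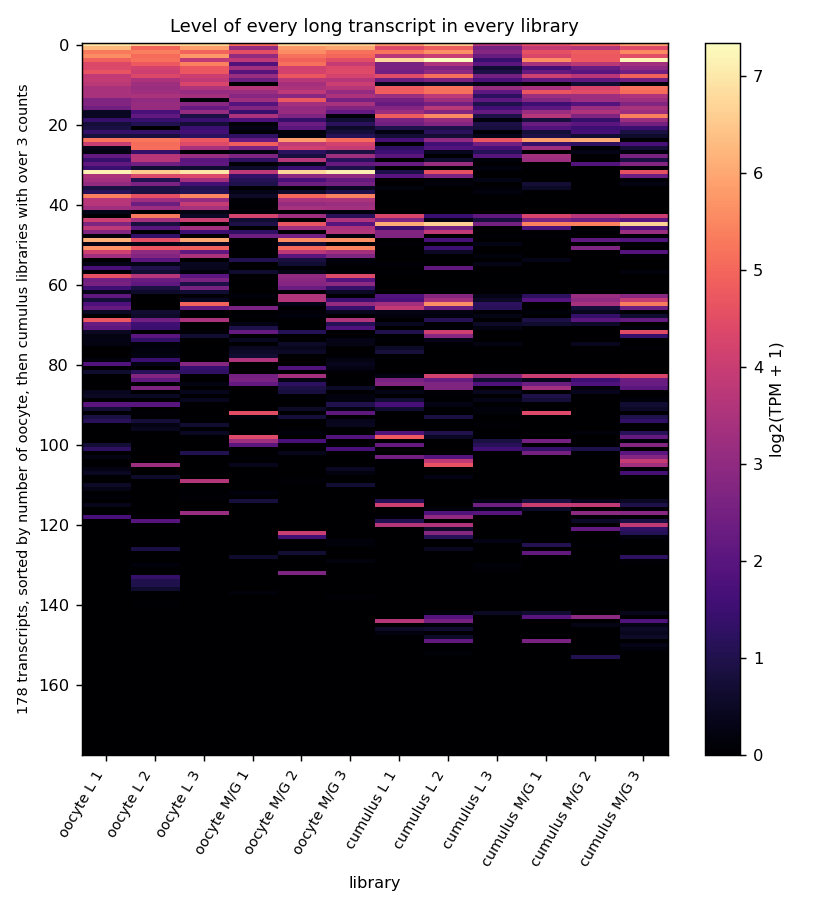
Level of each of the 178 members (rows, log2(TPM + 1)) in each library (columns), sorted by the number of oocyte and then of cumulus libraries with over 3 counts. M/G oocyte replicate 1 is dark in many rows where the other 5 oocytes are bright, and the lowest 24 rows hold the members detected in no library.

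Oocyte and cumulus cells were compared member by member with edgeR's quasi-likelihood test, fitted on all 28104 transcripts with an FPKM over 1 in at least 1 library, with p-values adjusted over all of them. Of the 178 members 112 passed this filter, and 24 of these had an adjusted p under 0.05, 12 higher in oocytes and 12 higher in cumulus cells. That is 21.4% of the members tested, where the background was 10.5%. It is 10.7% in each direction, where the background was 6.96% for higher in oocytes and 3.52% for higher in cumulus cells. The number called lay between 12 and 21 in the fits that left out 1 library, lowest without M/G oocyte replicate 3. DESeq2 called 38 members, 33.9% of the 112, where the background was 28.8%. On the log2(TPM + 1) scale limma called 20 members, 17.9% of those tested against 21.4% of all transcripts, so the higher share among members was seen on the count scale and not on that scale. The median log2 fold change of the members tested was -0.65, against -0.00 over all transcripts tested. Scaling by RLE in place of TMM moved the median of all transcripts by 0.21 towards oocytes and gave 15 members higher in oocytes and 10 higher in cumulus cells, while the calls over all transcripts went from 1957 to 2416 higher in oocytes and from 988 to 919 higher in cumulus cells. The groups did not overlap for 7 members higher in oocytes (background 6.23%) and 4 higher in cumulus cells (background 4.12%).

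Most members higher in oocytes were not detected in cumulus cells. Of the 12, 9 were detected in no cumulus library, 6 in all 6 oocytes and 4 in both ways, 9 were called in each of the 12 fits that left out 1 library, and 11 passed on the log2(TPM + 1) scale as well. ENSBTAT00000072701.1 (13491 nt) had 41.6, 23.0 and 43.9 TPM in L oocytes and 0.484, 31.6 and 42.7 TPM in M/G oocytes, and 0 counts in all 6 cumulus libraries. It was thus high in 5 oocytes and low in 1. Its count after TMM scaling to a common library size (normalised count) was 4460 ± 2366 in oocytes. That is at least 706-fold higher than a floor of 3 counts per library in cumulus cells, which was 6.32 on the normalised scale (edgeR adjusted p = 3.71e-04). ENSBTAT00000061000.3 (19917 nt) had 11.98, 8.79 and 7.50 TPM in L oocytes and 0.0595, 10.1 and 10.2 TPM in M/G oocytes, and 0 counts in all cumulus libraries, at least 278-fold higher in oocytes on the same terms (edgeR adjusted p = 0.00125).

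The longest of all 38030 transcripts, ENSBTAT00000086078.1 (24420 nt), was also higher in oocytes. It was detected in all 12 libraries, with 12.6, 8.49 and 18.6 TPM in L oocytes and 0.0166, 9.38 and 15.5 TPM in M/G oocytes. In cumulus cells it had 0.282, 0.443 and 0.209 TPM in the L group and 0.00854, 0.633 and 0.136 TPM in the M/G group. The low M/G oocyte lay within the cumulus range and the other 5 oocytes above it. The log2 fold change was 3.87 on the count scale (edgeR adjusted p = 0.0425), and the call was made in 3 of the 12 fits without 1 library.

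Calls of members higher in cumulus cells were lost more often when 1 library was left out. Of the 12, 1 was called in each of the 12 fits without 1 library, 2 passed on the log2(TPM + 1) scale, and the mean TPM was higher in cumulus cells for all 12. Over all transcripts and both directions the calls also moved in these fits, from 2945 to between 1645 and 3667. ENSBTAT00000044652.3 (14329 nt) had 5.40, 0.798 and 0 TPM in L oocytes and 0.907, 24.2 and 2.90 TPM in M/G oocytes. The cumulus libraries had 65.4, 99.3 and 4.73 TPM in the L group and 41.5, 41.2 and 101 TPM in the M/G group. The normalised counts did not overlap, at 984 ± 1527 in oocytes and 19177 ± 8528 in cumulus cells (log2 fold change -4.73, edgeR adjusted p = 0.026), and DESeq2 estimated -4.51 ± 1.19 (SE). Without L oocyte replicate 2, M/G oocyte replicate 1 or M/G oocyte replicate 3 the adjusted p was 0.055, 0.0572 and 0.0661. ENSBTAT00000033270.5 (21936 nt) had 0.730, 1.06 and 0.667 TPM in L oocytes and 0.0874, 4.02 and 1.27 TPM in M/G oocytes. In cumulus cells it had 4.32, 5.99 and 0.921 TPM in the L group and 3.97, 3.09 and 4.75 TPM in the M/G group. The ranges overlapped in TPM but not in normalised counts (log2 fold change -2.70, edgeR adjusted p = 0.0264, and -2.52 ± 0.64 (SE) by DESeq2). The call was lost in 7 of the 12 fits without 1 library and on the TPM scale (limma adjusted p = 0.257). In the fits without 1 library the log2 fold change ran from -3.06 to -2.45, and for ENSBTAT00000044652.3 from -5.93 to -4.23. The highest member in cumulus cells, ENSBTAT00000027527.6 (14932 nt), had 82.3 ± 66.1 TPM there and 23.3 TPM in oocytes, with L cumulus replicate 3 at 1.73 TPM, below every oocyte (log2 fold change -2.46, edgeR adjusted p = 0.0244). It was called in 6 of the 12 fits without 1 library and not on the log2(TPM + 1) scale. In cumulus libraries, fewer cells holding a transcript and less of it per cell cannot be told apart.

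**Figure D4:**
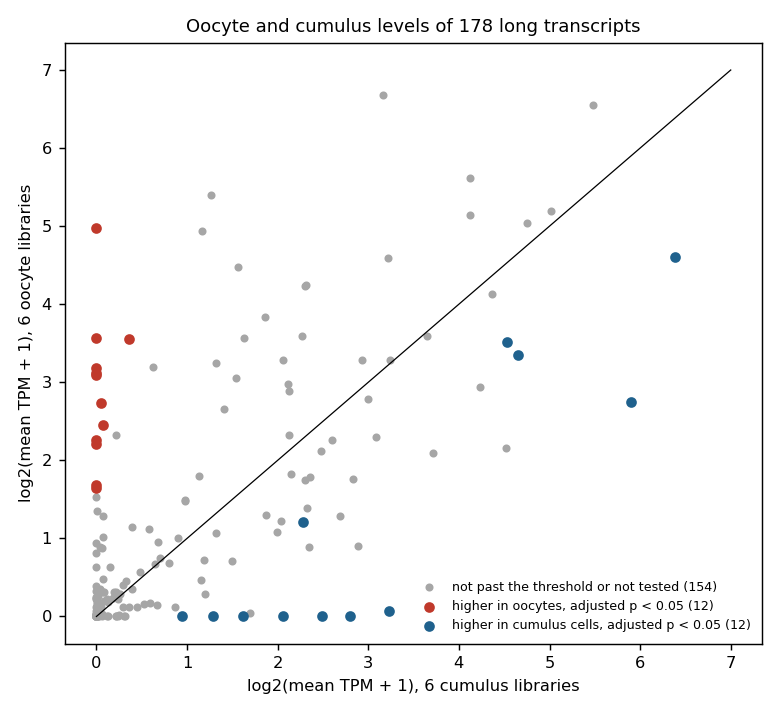
Mean level of each member in the 6 cumulus libraries (x axis) and the 6 oocyte libraries (y axis), both as log2(mean TPM + 1), with the line of equal levels. The 12 members higher in oocytes (red) lie along the left edge, with cumulus means of at most 0.285 TPM, and the 12 higher in cumulus cells (blue) spread below the line.

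Most members lay next to another member in the tables rather than standing alone. The 178 members lay in 68 runs of adjacent rows, and 143 of them were in 33 runs of at least 2, the largest of 10. The files do not say whether adjacent transcripts belong to one gene. Most detected members had counts that were not whole numbers (by over 0.001), for example 68 of 96 in L oocyte replicate 1 and 72 of 96 in M/G cumulus replicate 3. This happens when Kallisto divides reads that match several transcripts, so the level of a single member is uncertain where it shares sequence with another. Summing a run left most of these counts not whole. Of the non-whole members in runs of at least 2, the run sum was whole for 5 of 34 in M/G cumulus replicate 2 and 17 of 35 in M/G cumulus replicate 1. Whether runs share reads with transcripts outside them was not tested, so a run sum can be uncertain as well. Of the 20 runs of at least 2 members with over 3 summed counts in every library, the same member led in all 12 libraries in 2 runs, in all 6 oocytes in 4 and in all 6 cumulus libraries in 5. Of the 68 runs, 55.3 ± 4.72 were detected in oocytes and 49.2 ± 5.04 in cumulus cells.

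Summing the adjacent rows kept the direction of most members called between cell types, but not of all. Each run sum includes the called member itself, and members of one run share one sum, so the members counted here are not separate cases. Of the 12 higher in oocytes, 9 lay in runs of at least 2, and the summed TPM was higher in oocytes for 8 of these. The run sums of 6 of the 12 were detected in all 6 cumulus libraries. Of the 12 higher in cumulus cells, 11 lay in such runs, and the summed TPM was higher in cumulus cells for 8. For ENSBTAT00000033270.5 the run sum was 36.8 ± 9.65 TPM in oocytes and 35.3 ± 17.6 TPM in cumulus cells, so the difference seen for the member was not seen in its run. The run sums of ENSBTAT00000069482.1 and ENSBTAT00000063141.2, both named after their values were seen, had the opposite order to the members. ENSBTAT00000069482.1, the member higher in cumulus cells that was called in each of the 12 fits without 1 library, lay in a run of 2 with ENSBTAT00000028347.6, which summed to 101.9 ± 47.1 TPM in oocytes and 16.4 ± 7.31 TPM in cumulus cells. The run of ENSBTAT00000063141.2 summed to 41.1 ± 19.3 and 6.60 ± 3.51 TPM. For ENSBTAT00000044652.3 it was 26.9 ± 7.73 and 60.8 ± 36.7 TPM, in the direction of the member. ENSBTAT00000086078.1 and ENSBTAT00000061000.3 lay in one run of 9, which summed to 37.4 ± 18.7 TPM in oocytes and 0.472 ± 0.289 TPM in cumulus cells. The same run held ENSBTAT00000087259.1 and ENSBTAT00000086692.1, also called higher in oocytes. ENSBTAT00000020240.6, ENSBTAT00000082550.1 and ENSBTAT00000070197.1, called higher in cumulus cells, shared a run of 10. That run summed to 3.15 ± 2.04 TPM in oocytes and 11.7 ± 6.57 TPM in cumulus cells. The members added in these last sentences are named after their values were seen. The run of 9 that holds ENSBTAT00000072701.1 summed to 31.7 ± 17.0 and 0 TPM.

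No member passed the edgeR test between L and M/G in either cell type. In oocytes 92 members were tested and 0 had an adjusted p under 0.05, where the background was also 0 of all 23682 transcripts tested. An unadjusted p under 0.05 was found for 6 members, which is 6.52% of those tested where the background was 2.18%. Of these 2 were higher in the L group (background 0.777%) and 4 lower (background 1.4%). DESeq2 called 3 members in oocytes (background 1.29%), ENSBTAT00000030444.5 and ENSBTAT00000080230.1 as higher in the L group and ENSBTAT00000071555.1 as lower, the second of which is named after its values were seen. ENSBTAT00000030444.5 (15048 nt) had 0.194, 3.09 and 0.588 TPM in L oocytes and 0, 0 and 0.0303 TPM in M/G oocytes (log2 fold change 6.93, edgeR unadjusted p = 0.0372, adjusted p = 1). The groups did not overlap. L replicate 2 was the highest, and without it the transcript did not pass the filter on FPKM, while the other fits without 1 library gave log2 fold changes of 6.36 to 11.3. ENSBTAT00000071555.1 (18171 nt) had 0 TPM or close to it in the 3 L oocytes and 8.55, 2.30 and 0 TPM in M/G oocytes, so M/G replicate 3 lay with the L group (edgeR unadjusted p = 0.0164, adjusted p = 1). The groups did not overlap for 5 members higher in the L group (background 4.03%) and 1 lower (background 2.09%). The median log2 fold change of the members tested was -0.20, against 0.11 for all transcripts tested.

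In cumulus cells 88 members were tested, 0 passed with edgeR (background 0) and 0 with DESeq2 (background 0.587%), and 5 had an unadjusted p under 0.05 (background 1.53%), 2 higher (background 0.772%) and 3 lower (background 0.755%) in the L group. ENSBTAT00000070579.1 (14652 nt) had the smallest p of those higher in the L group, with 5.597, 0.00939 and 0.0496 TPM in L and 0.0454, 0.0215 and 0.0729 TPM in M/G cumulus cells, so that L replicate 1 alone set the direction (edgeR unadjusted p = 0.0332, adjusted p = 1). ENSBTAT00000081572.1 (14457 nt) had the smallest p of those lower, with 0, 0.0760 and 0 TPM in L and 4.65, 0 and 3.03 TPM in M/G cumulus cells (edgeR unadjusted p = 0.0248, adjusted p = 1). The groups did not overlap for 0 members higher in the L group (background 2.24%) and 2 lower (background 2.40%). The difference of the L effect between the cell types, tested as an interaction over 112 members, gave 0 with edgeR (background 0), 8 at an unadjusted p under 0.05 (background 5.02%) and 7 with DESeq2 (background 3.49%). Of the 8, the L effect was higher in oocytes for 1 (background 1.78%) and higher in cumulus cells for 7 (background 3.24%).

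Agreement between libraries was measured as Pearson's r of log2(TPM + 1) over the 178 members. The members are not independent replicates, since many lay in adjacent rows and may share reads. Within oocytes the 15 pairs had a mean r of 0.741, from 0.462 to 0.945, against a mean of 0.752 over all transcripts. The 5 pairs with M/G oocyte replicate 1 had a mean of 0.536 and the other 10 pairs 0.844. This library had a higher mean r with the 6 cumulus libraries, 0.624, than with the other oocytes, while the other oocytes had a mean of 0.509 with cumulus libraries. The same order was seen over all transcripts. There M/G oocyte replicate 1 had a mean r of 0.636 with cumulus libraries and 0.577 with the other oocytes, whose own pairs had 0.839. Within cumulus cells the mean was 0.729, from 0.608 to 0.907, against 0.753 over all transcripts.

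Agreement was also compared by body condition, with no test. Pairs of the same and of different condition had mean r of 0.745 and 0.739 in oocytes and 0.697 and 0.750 in cumulus cells. In cumulus cells the pairs among L replicates 1 and 2 and M/G replicate 3 had a mean of 0.832, the pairs among L replicate 3 and M/G replicates 1 and 2 a mean of 0.805, and the 9 pairs across these trios 0.669. Over all transcripts the same means were 0.854, 0.731 and 0.728, so there the second trio agreed about as well inside as across. The grouping over members was noticed in the values and crosses the body condition groups. Oocyte and cumulus libraries had a mean r of 0.528 over 36 pairs, and the 3 pairs from the same cow 0.574 against 0.524 for the other 33. With the TPM of adjacent members summed, which left 68 points, the mean r rose to 0.814 within oocytes and 0.929 within cumulus cells.

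**Figure D5:**
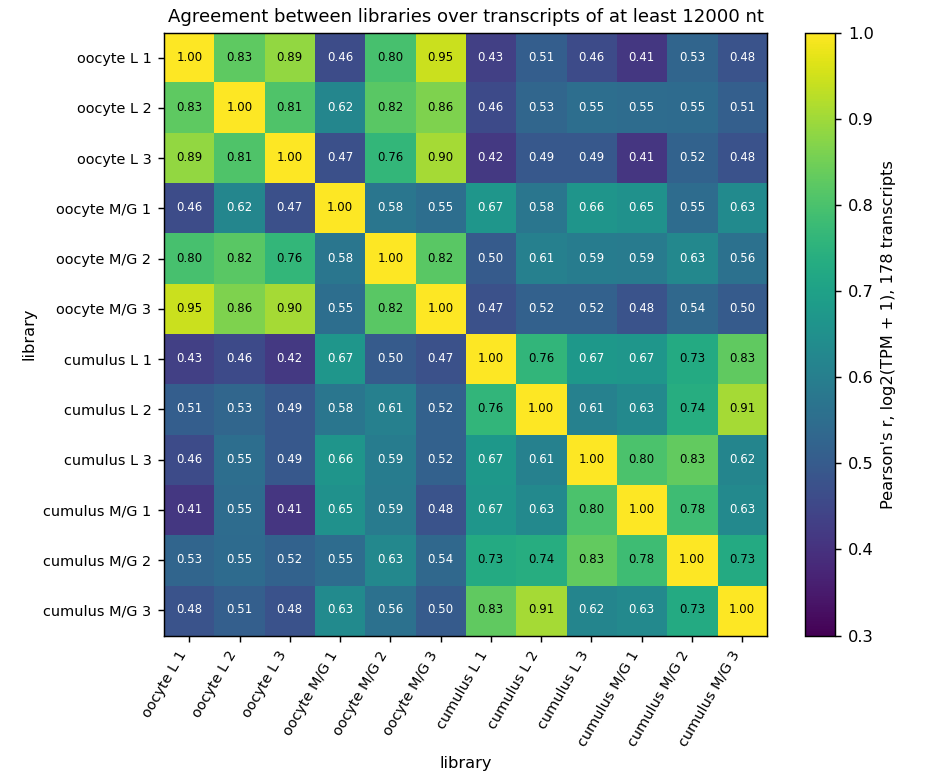
Pearson's r of log2(TPM + 1) over the 178 members for each pair of the 12 libraries. M/G oocyte replicate 1 stands out as the row with low values among oocytes (0.462 to 0.620). Over these members the cumulus block shows 2 trios with r of 0.760 or more inside each.

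Detected members were shared in part between libraries. Of the members detected in either library of a pair, 60.8% on average were detected in both within oocytes, 55.3% within cumulus cells and 46.8% between an oocyte and a cumulus library. From 2 to 9 members were detected in a given oocyte library and no other oocyte, and from 1 to 8 in a given cumulus library and no other. For the 43 members detected in all 6 oocytes the median coefficient of variation of TPM was 52.7%, and 32.7% without M/G replicate 1, against 53.2% and 34.9% for all 8519 transcripts detected in all 6. For the 32 members detected in all 6 cumulus libraries it was 55.1%, and 41.4% without L replicate 3, against 58.7% and 47.5% for all 6740 such transcripts.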

How the data were processed

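Reads were trimmed by the authors (fastp) and assigned to Ensembl bovine cDNA (build 100) with kallisto 0.44.0. The deposited tables give 1 estimated count, TPM, length and effective length per transcript and library. The estimated counts are the authors' and are not normalized. The TPM values deposited by the authors keep no depth, and their log2(TPM + 1) was used for correlations. Transcripts were tested, not genes, since the files pair neither. Length alone selects the members, but the set, the lists and the tests were proposed with earlier results of these data known.

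Counts were rounded and fitted with edgeR 4.0.16 (quasi-likelihood, TMM, Benjamini-Hochberg over all transcripts with an FPKM, from count, effective length and total, over 1 in at least 1 library of the fit). Both cell types entered 1 fit with 4 groups, and each L against M/G fit used 6 libraries. The study's methods used DESeq2, here an alternative (DESeq2 1.42.0), with limma 3.58.1. The script was tested on simulated data. Detection needed over 3 estimated counts, a limit that covers counting error only and stood for 0.0943 to 0.469 CPM (counts scaled to a fixed library total). P-values reflect the spread between 3 libraries, each from 1 cow, per group. Planned permutation tests of the members' detection counts and shares were left out, as no p is given for a score over a set so proposed. Named were the longest and shortest member, the longest outside, the 3 highest by mean TPM per cell type, the 2 called and detected throughout the higher cell type with the largest fold change in each direction, and the smallest p in each direction between L and M/G. Others are said to be named after their values were seen. Titles carry replicate numbers 1 to 3, from which the pairing by number comes. Same-numbered libraries are from different cows and had a mean correlation of deviations of -0.0361 (oocytes) and -0.156 (cumulus cells), so they were not paired.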

Additional observations from a re-analysis of the deposited data

Results flagged for a closer look

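A library was looked for that lay far from the other 5 of its cell type, by the gap to its nearest neighbour over the range. Of 40 groups of 6 examined, 14 held such a library, where chance flags about 1 group in 20. That rate does not hold for the 12 of the 14 that are levels of named transcripts, some named for the smallest p between L and M/G and near 0 in most libraries. M/G oocyte replicate 1 lay below the other oocytes in the members' share of TPM (0.0350%) and in its mean r with the other oocytes over the members (0.536). It was also the low library for ENSBTAT00000028347.6 (12.97 TPM) and ENSBTAT00000029285.6 (32.5 TPM), and the high one for ENSBTAT00000071555.1 (8.55 TPM). M/G oocyte replicate 2 was the high oocyte for ENSBTAT00000033270.5 (4.02 TPM) and ENSBTAT00000044652.3 (24.2 TPM). L oocyte replicate 2 was high for ENSBTAT00000030444.5 (3.09 TPM) and L oocyte replicate 3 for ENSBTAT00000081572.1 (1.07 TPM). Among cumulus libraries, L replicate 2 was high for ENSBTAT00000030444.5 (6.06 TPM), L replicate 1 for ENSBTAT00000070579.1 (5.597 TPM), M/G replicate 1 for ENSBTAT00000071555.1 (4.84 TPM) and M/G replicate 2 for ENSBTAT00000081003.1 (1.06 TPM). L cumulus replicate 2 was high for ENSBTAT00000081543.1 (0.219 TPM), the transcript just outside the length threshold.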

How the results depend on the processing

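Of the 24 members called between oocytes and cumulus cells, the number became 38 with DESeq2 and 39 (34.8% of those tested, against 27.7% of all transcripts) with limma-voom and the cow as a random block. It lay between 12 and 21 when 1 library was left out, at 14 (12.6% of those tested, against 7.15% of all transcripts) without M/G oocyte replicate 2, 12 (10.7% against 5.92%) without M/G oocyte replicate 3 and 15 without either L cumulus replicate 1 (13.5% against 6.15%) or L cumulus replicate 2 (13.4% against 7.71%). Without M/G oocyte replicate 1 and L cumulus replicate 3, a choice made after seeing the data, it was 22 (20% against 11.9%), 11 in each direction. On log2(TPM + 1) with limma it was 20 (17.9% against 21.4%, a lower share than over all transcripts), with 18 higher and 2 lower in oocytes, so the even split of the count scale did not hold there. With the replicate number as a block it was 31 (27.7% against 11.5%), and the block changed none of the counts of 0 members between L and M/G. Over all transcripts the block gave 1 call in cumulus cells. DESeq2 gave 3 calls between L and M/G in oocytes and 7 for the difference of the L effect, against 0 for edgeR. With a length limit of 10000 nt the oocyte minus cumulus difference in count share was 0.369 percentage points and turned towards oocytes, that in TPM share 0.142, and the L minus M/G difference in TPM share of oocytes 0.0706. Without the 10 highest transcripts the L minus M/G difference in count share of oocytes was -0.121. Summing adjacent members gave a mean r of 0.929 in cumulus cells. The cause of these shifts was not tested.

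Leaving out 1 library, the oocyte minus cumulus difference lay between 12.5 and 19.1 members detected, between -0.301 and -0.0821 percentage points of counts and between 0.0169 and 0.0364 of TPM. Between L and M/G the differences in members detected ran from -2 to 8.5 in oocytes and from -2.83 to 13.7 in cumulus cells, those in count share from -0.0295 to 0.0549 and from -0.329 to 0.218, and those in TPM share from 0.00139 to 0.0337 and from -0.0230 to 0.0184, so most had no stable sign. The mean r over members ran from 0.703 to 0.844 in oocytes and from 0.712 to 0.742 in cumulus cells. Every count of 0 members between L and M/G stayed at 0 in these fits. Over all transcripts the count in cumulus cells became 11 without L replicate 2 and 3 without M/G replicate 3. The detection limit of 3 counts stood for 0.0943 to 0.372 CPM in oocyte libraries and 0.253 to 0.469 CPM in cumulus libraries. Among cumulus libraries, detection did not follow depth: the deepest pair, M/G replicates 1 and 2, had 63 members each.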
